A study of Mus musculus with 6 samples.

Results

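Serine synthesis and folate-dependent one-carbon metabolism were followed through 9 genes, Phgdh, Psat1, Psph, Shmt1, Shmt2, Mthfd1, Mthfd1l, Mthfd2 and Aldh1l2. They were chosen by name, with earlier results of these data known, and all 9 were found among the 25638 genes of the deposited FPKM table. FPKM counts the fragments of a gene per length of the gene and per depth of the library, so that levels of different genes can be set side by side. RNA was sequenced from mouse OT-I cells, CD8+ T cells whose transgenic receptor recognises a peptide of ovalbumin, after 48 h with that peptide (OVA257-264). The T cells had been kept with TANs, with TAMos or with vehicle, in 2 libraries per group, and were purified before RNA was extracted. TANs were sorted as CD11b+Ly6G+Ly6Clow cells and TAMos as CD11b+Ly6G-Ly6Chigh cells, both from spleens of mice that carried LLC tumours, a transplantable mouse lung carcinoma. Every library came from T cells of genotype WT that had received the peptide, so the peptide is common to the 3 groups and cells without it were not analysed here. The receptor is the same in all cells of an OT-I culture, and the myeloid cells were taken from the spleen and not from the tumour. TAN and TAMo are not spelled out in the labels, which also leave unsaid whether libraries of one group stem from different cultures or animals. The p-values therefore measure the spread between these libraries, which may be technical.

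Cells make serine from the glycolytic intermediate 3-phosphoglycerate in steps carried out by PHGDH, PSAT1 and PSPH. Serine then gives up a carbon to the cofactor tetrahydrofolate and becomes glycine, in mitochondria through SHMT2 and in the cytosol through SHMT1. The carbon is processed in mitochondria by MTHFD2 and MTHFD1L, leaves as formate, and is recaptured in the cytosol by MTHFD1 for purine and thymidylate synthesis. Activated T cells are known to raise these enzymes as they begin to divide.

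In the presence of TAMos the 9 genes were lower in OT-I cells than with vehicle, by between 1.56-fold for Mthfd1l and 30.4-fold for Phgdh among the 8 genes that passed the filter on low values in every library. Aldh1l2, the ninth, was also lower, but its TAMo level rested on about 9 and 5 reads. In the presence of TANs those 8 genes stayed near the vehicle level. Shmt2 was the 1 gene of the 9 that passed the test, at 91.8% of its vehicle level. Aldh1l2 was at 80.2% of its vehicle level with TAN and was not called. The summed level of the 9 genes was 1790 and 1783 FPKM with TAN, 321.0 and 315.4 FPKM with TAMo, and 1812 and 1789 FPKM with vehicle. Both TAMo libraries lay far below the other 4, and the TAN and vehicle libraries overlapped. The 9 genes held 0.285% and 0.284% of all FPKM with TAN, 0.0588% and 0.0576% with TAMo, and 0.287% and 0.284% with vehicle.

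**Figure D1:**
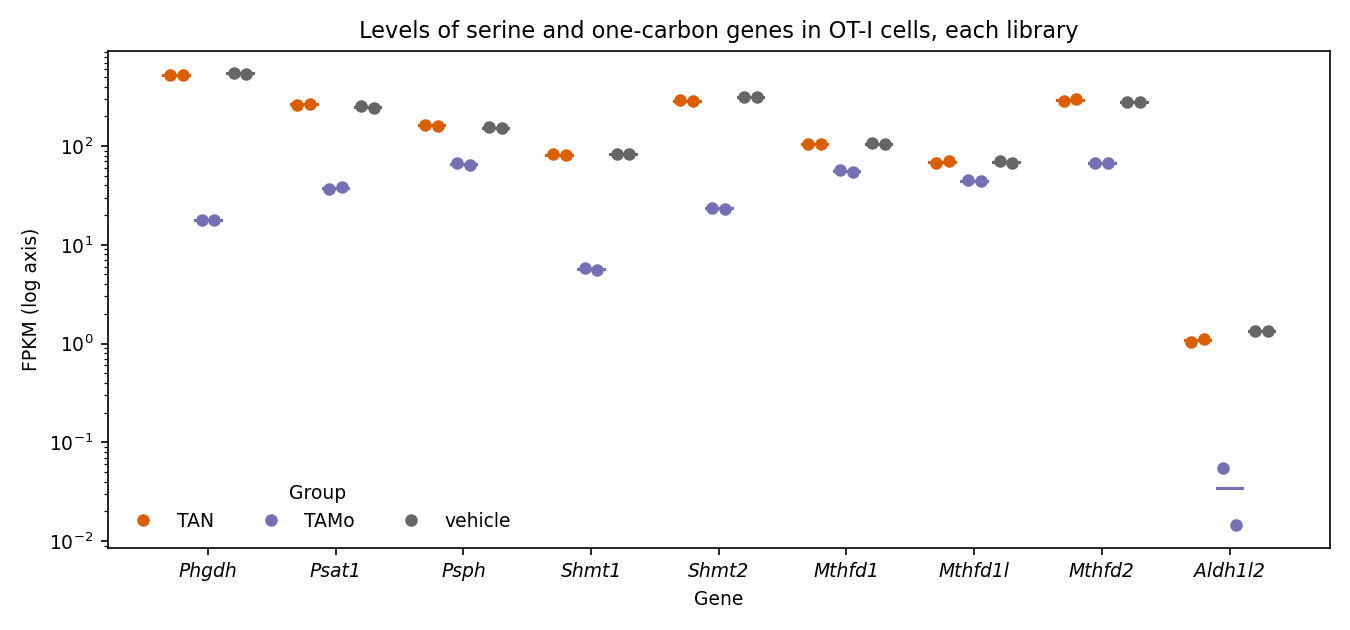
Level of each of the 9 genes in each library, in FPKM on a log axis, for OT-I cells with TAN, TAMo or vehicle; points are libraries and short lines are means of 2. The TAMo points lie below the TAN and vehicle points in every gene, from 17.9 against 543.1 FPKM (mean with vehicle) for Phgdh to 44.4 against 69.3 FPKM for Mthfd1l.

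The libraries were similar in depth except for 1. Steps between low FPKM values gave 41.7 to 45.3 M counted reads in 5 libraries and 21.9 M in TAMo replicate 1, where fewer of the low values were even numbers of reads (41.8%, against 60.2% to 63.6% in the others), so that its depth is uncertain. At these depths the 8 genes other than Aldh1l2 rested on about 494 to 61051 reads per library. Pearson correlations of log2 values across genes between the 2 libraries of a group were 0.998 for TAN, 0.996 for TAMo and 0.998 for vehicle. The share of all FPKM from the mitochondrial genome was 8.07% and 8.21% with TAN, 1.20% and 1.32% with TAMo, and 8.15% and 8.34% with vehicle. The CD8 T cell markers, 9 genes, summed to 1431 and 1447 FPKM with TAN, 1703 and 1697 FPKM with TAMo, and 1464 and 1492 FPKM with vehicle. Single markers moved in both directions, with 6 rises and 3 falls with TAMo and 0 rises and 2 falls with TAN. Cd5 was at 77.8 and 78.2 FPKM with TAN, 303.0 and 301.9 FPKM with TAMo, and 93.8 and 92.3 FPKM with vehicle. Cd2 was at 207.9 and 214.8 FPKM with TAN, 48.2 and 55.3 FPKM with TAMo, and 189.1 and 202.9 FPKM with vehicle. Cd8a was at 135.4 and 134.8 FPKM with TAN, 94.5 and 95.1 FPKM with TAMo, and 144.8 and 152.0 FPKM with vehicle.

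Differences were tested with limma on log2(FPKM + 1) over 10727 genes, those that reached 1 FPKM in 2 or more libraries, and a gene was called at a Benjamini-Hochberg adjusted p under 0.05 over all of them. Values after ± are the SD over 2 libraries where FPKM or ratios are given, and standard errors where log2 changes are. With TAMo against vehicle, 86.5% of all genes tested were called, 45.7% higher and 40.7% lower, so a call by itself sets a gene apart from few others. The 9 genes were all called lower in this comparison. Falls of at least 1 log2 unit were less common, at 14.4% of all genes tested, and 7 of the 9 genes fell by that much, the exceptions being Mthfd1 and Mthfd1l. The median log2 change was -2.04 over the 9 genes, -2.37 without Aldh1l2 and 0.057 over all genes tested. Aldh1l2, 1 of the 7 with such a fall, passed the filter on low values only through its TAN and vehicle libraries and so had to differ from TAMo. The other 8 passed it in every library, and were all called lower. In all 9 genes both TAMo libraries were under both vehicle libraries, as in 43.7% of all genes tested, and the groups did not overlap in either direction in 92.7%.

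With TAN against vehicle, 20.3% of all genes tested were called, 9.37% higher and 11.0% lower, and 0 of the 9 genes were called higher and 1 lower. The 2 libraries of a group did not overlap with those of the other in 6 of the 9 genes, against 64.1% of all genes tested. The share called among the 9 is thus no larger than in the table as a whole. With TAN against TAMo, 86.6% of all genes tested were called, 40.6% higher with TAN and 46.0% lower, and all 9 genes were called higher with TAN. Of all genes tested, 14.3% were called and higher with TAN by at least 1 log2 unit, as were 7 of the 9 genes, again all but Mthfd1 and Mthfd1l. Both TAN libraries were above both TAMo libraries in all 9 genes, as in 43.6% of all genes tested, with no overlap in either direction in 93.0%. Aldh1l2, 1 of these 7, passed the filter only through its TAN and vehicle libraries and so had to differ from TAMo here too. Its log2 change, 1.005, only just reached 1. The median log2 change was 2.10 over the 9 genes, 2.44 without Aldh1l2 and -0.065 over all genes tested. The comparisons with vehicle share the vehicle libraries, and TAN against TAMo shares its libraries with both.

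**Figure D2:**
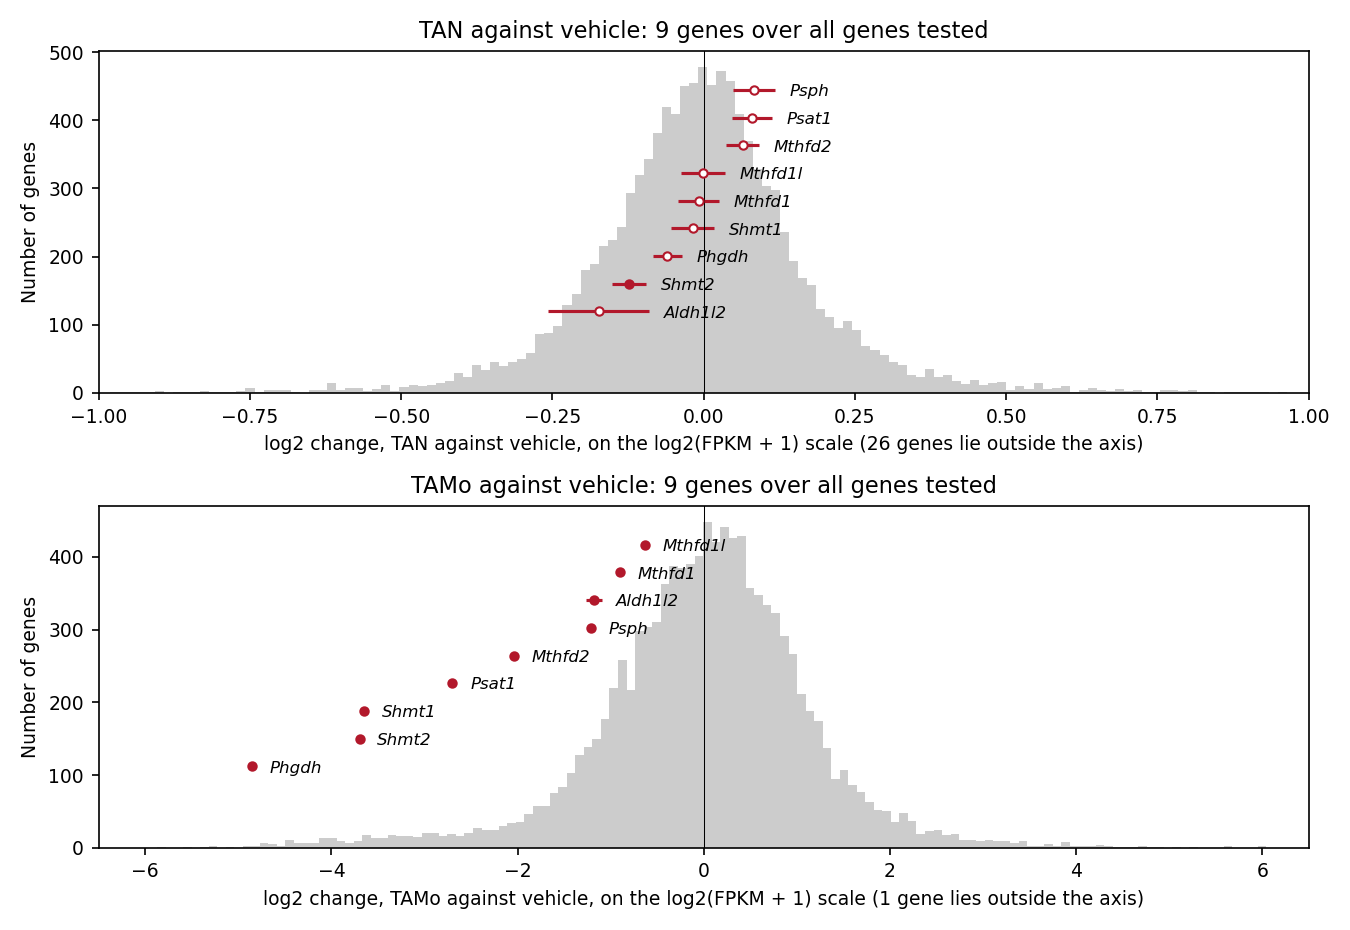
Log2 change on the log2(FPKM + 1) scale of the 9 genes (points, bars are standard errors, filled where called; their heights are only for spacing) over the distribution of all 10727 genes tested (grey), for TAN against vehicle and TAMo against vehicle. With TAN the 9 genes lie between -0.17 and 0.08, inside the bulk of the distribution, and with TAMo they lie between -4.85 and -0.63.

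The serine synthesis genes changed by unequal amounts with TAMo. Phgdh encodes the dehydrogenase that commits 3-phosphoglycerate to serine. It measured 522.6 and 519.0 FPKM with TAN, 17.9 and 17.8 FPKM with TAMo, and 544.4 and 541.9 FPKM with vehicle. The TAMo libraries were at 3.29% of the vehicle level, and both TAN libraries lay slightly under both vehicle libraries. With TAMo against vehicle Phgdh fell by 4.85 ± 0.024 on the log2 scale (30.4-fold by mean FPKM, adjusted p = 1.55e-10), the 9th largest fall of the 10727 genes tested. Against vehicle its log2 change with TAN was -0.06 ± 0.024, with an adjusted p of 0.122 and a 95% interval of -0.117 to -0.004. With TAN against TAMo it was higher by 4.79 ± 0.024 (29.1-fold, adjusted p = 1.69e-10).

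Psat1 encodes the aminotransferase of the second step. Its level was 262.4 and 265.1 FPKM with TAN, 36.9 and 38.2 FPKM with TAMo, and 255.5 and 243.7 FPKM with vehicle. The TAMo libraries were again far below the rest, and the TAN libraries were a little above those with vehicle. Psat1 fell by 2.70 ± 0.033 on the log2 scale with TAMo against vehicle (6.64-fold, adjusted p = 1.02e-09), the 289th largest fall. Its log2 change was 0.08 ± 0.033 with TAN against vehicle, with an adjusted p of 0.139, and 2.78 ± 0.033 with TAN against TAMo (7.02-fold).

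Psph encodes the phosphatase that releases free serine. Levels were 164.7 and 159.2 FPKM with TAN, 66.9 and 63.7 FPKM with TAMo, and 155.1 and 150.5 FPKM with vehicle. The order of the 3 groups was the same as for Psat1, with a smaller gap to TAMo. The fall with TAMo against vehicle was 1.21 ± 0.035 on the log2 scale (2.34-fold, adjusted p = 3.82e-08), the 1169th largest. The log2 change with TAN against vehicle was 0.08 ± 0.035 (adjusted p = 0.144), and with TAN against TAMo it was 1.30 ± 0.035 (2.48-fold). In TAN and vehicle libraries the level thus stepped down along the pathway, with Phgdh above Psat1 and Psat1 above Psph, whereas in both TAMo libraries Psph was highest and Phgdh lowest of the 3. Neighbours in these orders did not overlap between libraries.

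The serine hydroxymethyltransferase genes fell by similar amounts with TAMo. Shmt2, the mitochondrial enzyme, was at 293.5 and 283.7 FPKM with TAN, 23.6 and 23.2 FPKM with TAMo, and 314.7 and 314.1 FPKM with vehicle. All 3 groups were separate, with TAN below vehicle and TAMo far below both. Shmt2 fell by 3.69 ± 0.028 on the log2 scale with TAMo against vehicle (13.4-fold, adjusted p = 2.42e-10, the 106th largest fall). It also fell with TAN against vehicle, by 0.12 ± 0.028 (adjusted p = 0.0246). That call was lost without the variance trend (adjusted p = 0.0870), without TAN replicate 1 (0.0633) or 2 (0.148), and without vehicle replicate 1 (0.120) or 2 (0.109). With TAN against TAMo it was higher by 3.57 ± 0.028 (12.3-fold).

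Shmt1, the cytosolic enzyme of the same reaction, was at 83.0 and 80.9 FPKM with TAN, 5.81 and 5.59 FPKM with TAMo, and 83.2 and 82.7 FPKM with vehicle. TAN and vehicle libraries overlapped, and TAMo libraries were apart. Shmt1 fell by 3.65 ± 0.036 on the log2 scale with TAMo against vehicle (14.6-fold, adjusted p = 4.55e-10, the 111th largest fall). Its log2 change with TAN against vehicle was -0.02 ± 0.036, with an adjusted p of 0.764 and a 95% interval of -0.103 to 0.0664, and it was 3.63 ± 0.036 with TAN against TAMo (14.4-fold). The ratio of Shmt2 to Shmt1 averaged 3.52 ± 0.0201 with TAN, 4.11 ± 0.0666 with TAMo and 3.79 ± 0.0129 with vehicle (SD, n = 2 each). The groups did not overlap in this ratio. An exact permutation test of 2 against 2 libraries, two-sided, cannot go below p = 0.333, which was its value for each pair of groups.

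Among the folate enzymes that handle the carbon after serine, the mitochondrial Mthfd2 fell further with TAMo than Mthfd1l or the cytosolic Mthfd1. MTHFD2 oxidises methylene-tetrahydrofolate. Its gene was at 288.8 and 298.5 FPKM with TAN, 67.3 and 68.0 FPKM with TAMo, and 279.2 and 282.3 FPKM with vehicle. TAMo libraries were the lowest and TAN libraries the highest, by a small margin. Mthfd2 fell by 2.04 ± 0.027 on the log2 scale with TAMo against vehicle (4.15-fold, adjusted p = 1.30e-09, the 464th largest fall). Its log2 change was 0.06 ± 0.027 with TAN against vehicle (adjusted p = 0.144) and 2.10 ± 0.027 with TAN against TAMo (4.34-fold).

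Mthfd1l encodes the mitochondrial enzyme that releases formate. It measured 67.8 and 70.7 FPKM with TAN, 45.1 and 43.8 FPKM with TAMo, and 70.6 and 68.1 FPKM with vehicle. This was the smallest change of the 9 genes with TAMo, a fall of 0.63 ± 0.036 on the log2 scale (1.56-fold, adjusted p = 1.60e-06), the 2564th largest fall. TAN and vehicle libraries overlapped, with a log2 change of -0.002 ± 0.036 (adjusted p = 0.977, 95% interval -0.0878 to 0.084). The difference of TAN from TAMo was 0.63 ± 0.036 (1.56-fold).

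MTHFD1, the cytosolic enzyme with several activities in 1 chain, attaches formate to tetrahydrofolate and reduces the product. Mthfd1 was at 105.8 and 104.7 FPKM with TAN, 57.5 and 55.0 FPKM with TAMo, and 107.7 and 104.0 FPKM with vehicle. The TAMo libraries lay below the other 4. The fall with TAMo against vehicle was 0.90 ± 0.034 on the log2 scale (1.88-fold, adjusted p = 1.43e-07), the 1803rd largest. TAN and vehicle overlapped, with a log2 change of -0.01 ± 0.034 (adjusted p = 0.890, 95% interval -0.088 to 0.0713), and TAN against TAMo gave 0.89 ± 0.034 (1.87-fold).

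Aldh1l2 encodes a mitochondrial enzyme that oxidises formyl-tetrahydrofolate to carbon dioxide with formation of NADPH. It was the least expressed of the 9, at 1.04 and 1.12 FPKM with TAN, 0.0549 and 0.0144 FPKM with TAMo, and 1.34 and 1.34 FPKM with vehicle. These levels correspond to about 350 and 375 reads with TAN, 9 and 5 reads with TAMo, and 451 and 457 reads with vehicle. The mean with TAMo was 38.7-fold lower than with vehicle, a ratio that rests on few reads (92.9-fold without TAMo replicate 1 and 24.4-fold without replicate 2), and 31.0-fold lower than with TAN. On the log2(FPKM + 1) scale, which understates changes of genes near 1 FPKM, it fell by 1.18 ± 0.084 with TAMo against vehicle (adjusted p = 5.30e-06). With a pseudocount of 0.1 the same change was -3.44. For TAN against vehicle the log2 change was -0.17 ± 0.084 (adjusted p = 0.191). The mean with TAN was 80.2% of that with vehicle, and over the alternative settings the log2 change lay between -0.29 and -0.15.

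The make-up of the pathway differed with TAMo. Phgdh held 29.2% and 29.1% of the summed FPKM of the 9 genes with TAN, 5.58% and 5.65% with TAMo, and 30.0% and 30.3% with vehicle. Psph held 9.20% and 8.93% with TAN, 20.8% and 20.2% with TAMo, and 8.56% and 8.41% with vehicle. Mthfd1l held 3.79% and 3.96% with TAN, 14.0% and 13.9% with TAMo, and 3.90% and 3.81% with vehicle. Phgdh was thus the largest share in each TAN and vehicle library and among the smaller ones in both TAMo libraries. From highest to lowest, the order with TAN was Phgdh, Mthfd2, Shmt2, Psat1, Psph, Mthfd1, Shmt1, Mthfd1l and Aldh1l2, where the libraries of Mthfd2 and Shmt2 overlapped. With vehicle the order was the same except that Shmt2 stood above Mthfd2. With TAMo it was Mthfd2, Psph, Mthfd1, Mthfd1l, Psat1, Shmt2, Phgdh, Shmt1 and Aldh1l2. No other neighbours in the 3 orders overlapped between libraries.

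The ratio of Mthfd2 to Mthfd1, mitochondrial over cytosolic enzyme of related reactions, averaged 2.79 ± 0.0857 with TAN, 1.20 ± 0.0462 with TAMo and 2.65 ± 0.0867 with vehicle (SD, n = 2 each). Mthfd1l to Mthfd1 averaged 0.658 ± 0.0243 with TAN, 0.791 ± 0.00879 with TAMo and 0.655 ± 0.000717 with vehicle. The TAMo libraries were therefore low in the first ratio and high in the second. The exact permutation p was 0.333, the smallest possible, for each pair of groups in both ratios, except for 1 in Mthfd1l to Mthfd1 with TAN against vehicle.

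**Figure D3:**
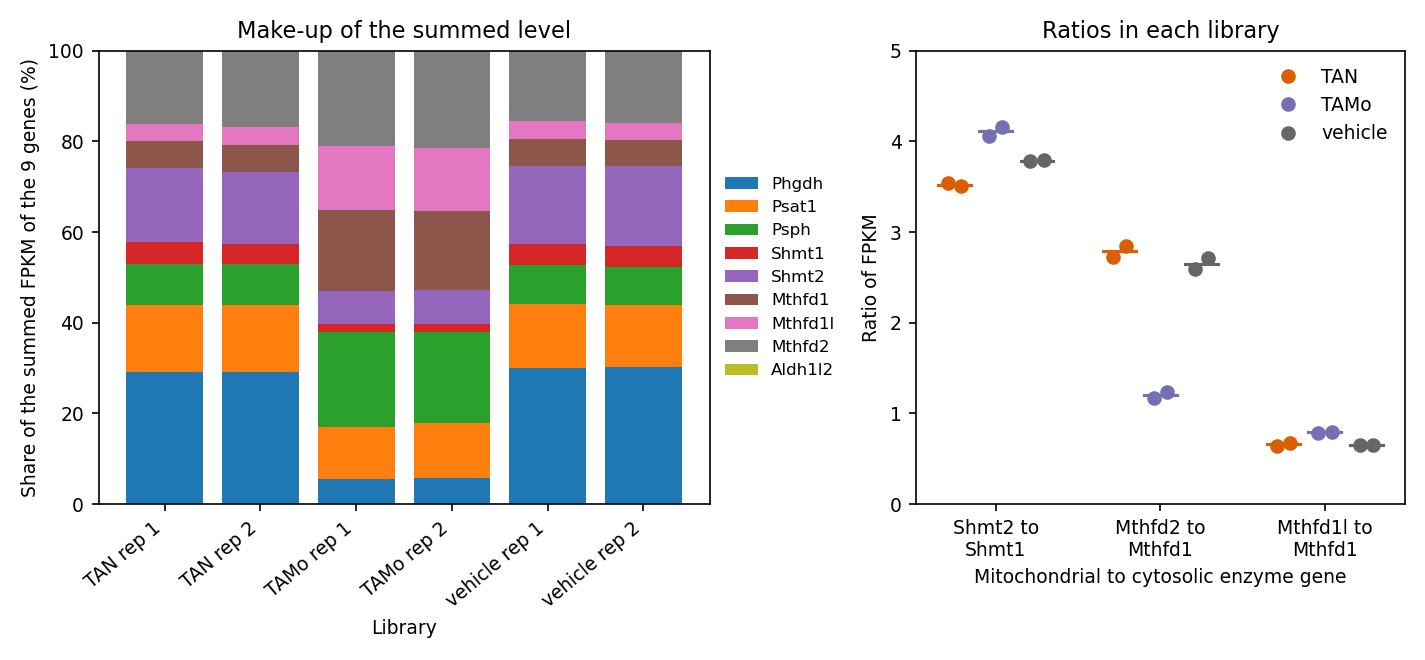
Left, share of each of the 9 genes in their summed FPKM (%) in each library of the TAN, TAMo and vehicle groups. Right, ratio of FPKM of mitochondrial to cytosolic enzyme genes in each library, with lines at the mean of 2; Phgdh holds 5.58% and 5.65% in the TAMo libraries against 29.1% to 30.3% in the others, and Mthfd2 to Mthfd1 is lowest with TAMo.

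Gene positions were taken from the GENCODE annotation of GRCm38, the assembly also called mm10. Phgdh spans chr3:98313170-98339990, Psat1 chr19:15904678-15947337, Psph chr5:129765558-129787449 and Shmt1 chr11:60788104-60811718, all on the minus strand. On chromosome 10 lie Shmt2 at chr10:127517123-127522444 and Aldh1l2 at chr10:83487450-83534140, both on the minus strand, and Mthfd1l at chr10:3973118-4167081 on the plus strand. Mthfd1 spans chr12:76255298-76319803 on the plus strand and Mthfd2 chr6:83305691-83325908 on the minus strand. Exons of 5 of the genes overlap genes on the opposite strand, over 452 bases with Cct6a for Psph, 184 with Smcr8 for Shmt1, 32 with Ndufa4l2 for Shmt2, 37 with Gm47525 for Mthfd1 and 1056 with D10Wsu102e for Aldh1l2. The sources used here do not say whether counting used strand, so reads there cannot be told apart. Transcripts of 19 other annotated genes, most of them processed pseudogenes, match Phgdh at 90% identity or more over at least 200 bases, and 1 such gene each matches Psat1 and Shmt2. How reads common to these copies were assigned is not known, which leaves the absolute level of Phgdh uncertain.

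Sequences upstream of the transcription start were read from the RefSeq promoter table (GRCm38.p6), which matched 8 of the 9 genes, Aldh1l2 being the exception. They are shown for the genes with the largest and the smallest falls with TAMo among those 8 on the log2(FPKM + 1) scale, Phgdh and Shmt2 first and Mthfd1 and Mthfd1l after them. Shmt1 was close to Shmt2, and by mean FPKM its fall was the larger of the pair. Each is the 250 bases before the start, written 5′ to 3′ on the strand of the gene. Capitals mark CCAAT or its reverse complement ATTGG.
Phgdh, chr3:98339970-98340219, minus strand: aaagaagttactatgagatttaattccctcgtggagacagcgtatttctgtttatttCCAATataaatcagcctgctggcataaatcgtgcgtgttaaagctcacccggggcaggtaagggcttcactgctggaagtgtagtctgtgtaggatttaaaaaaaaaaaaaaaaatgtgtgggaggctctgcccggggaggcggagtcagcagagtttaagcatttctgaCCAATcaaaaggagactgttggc
Shmt2, chr10:127522445-127522694, minus strand: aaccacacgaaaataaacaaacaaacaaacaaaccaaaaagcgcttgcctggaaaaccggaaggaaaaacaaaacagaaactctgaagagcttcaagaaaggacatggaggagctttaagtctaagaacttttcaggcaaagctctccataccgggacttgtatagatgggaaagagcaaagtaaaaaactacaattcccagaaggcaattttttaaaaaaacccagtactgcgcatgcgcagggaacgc
Mthfd1, chr12:76254982-76255231, plus strand: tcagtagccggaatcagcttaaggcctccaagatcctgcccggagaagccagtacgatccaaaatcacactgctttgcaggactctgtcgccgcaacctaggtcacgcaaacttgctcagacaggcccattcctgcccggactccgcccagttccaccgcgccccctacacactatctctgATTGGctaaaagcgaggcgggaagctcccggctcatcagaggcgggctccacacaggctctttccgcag
Mthfd1l, chr10:3972825-3973074, plus strand: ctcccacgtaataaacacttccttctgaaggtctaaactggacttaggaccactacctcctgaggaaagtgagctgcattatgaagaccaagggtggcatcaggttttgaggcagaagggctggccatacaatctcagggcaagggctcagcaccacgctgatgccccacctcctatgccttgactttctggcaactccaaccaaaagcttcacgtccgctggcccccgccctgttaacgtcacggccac
Windows of 250 bases before to 50 bases after the start were searched on both strands for TGATGNAA (the C/EBP-ATF response element), CACGTG (the E-box) and TTTNGCGC (an E2F core). Of the 8 genes, 0 held any of the 3 motifs in these windows. Over all 32851 windows of the table the shares were 3.97%, 7.15% and 1.38%. CCAAT, searched after the letters had been seen, was present in 6 of the 8 genes, the exceptions being Shmt2 and Mthfd1l, and in 37.4% of all windows. A match is a description of the letters and not a binding site.

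Genes outside the 9 with the most similar profiles were found by the Euclidean distance of centred log2(FPKM + 1) values over the 6 libraries. Nearest to Phgdh were Spc24 (distance 0.0651), Uhrf1 (0.139) and Mki67 (0.166). For Shmt1 they were Nasp (0.0540), Rad54l (0.0716) and Cenpi (0.0749), and for Shmt2 they were Cenpe (0.106), Shmt1 itself (0.108) and Rad54l (0.120). The nearest gene to Psat1 was Dnmt1 (0.0855), to Psph Stip1 (0.0555), to Mthfd1 Bcas2 (0.0480), to Mthfd1l Cnnm4 (0.0390), to Mthfd2 Atad5 (0.0732) and to Aldh1l2 Il16 (0.0430). Shmt1 and Shmt2 were the 1 pair of the 9 genes in which a gene stood among the 3 nearest of the other. The distance is set mainly by the size of the TAMo difference, since the TAMo libraries are far from the other 4.

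Other genes of serine, folate and methionine metabolism were read from the same fit. Of 57 listed, 44 were tested. With TAMo against vehicle 6 rose and 29 fell, with a median log2 change of -0.58. With every library rescaled to one sum the split was 11 higher and 27 lower. With TAN against vehicle 3 rose and 10 fell, and with TAN against TAMo 29 were higher and 7 lower. The share called was 79.5% with TAMo against vehicle, under the 86.5% of all genes tested. It was 29.5% against 20.3% with TAN against vehicle, and 81.8% against 86.6% with TAN against TAMo. Counts in the lists that follow are to be read beside the same shares of all genes. With TAMo these were 45.7% higher and 40.7% lower, and with TAN 9.37% and 11.0%.

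Serine and glycine handling, 14 genes tested, had 3 rises and 9 falls with TAMo against vehicle (median log2 change -0.58), and 0 rises and 3 falls with TAN against vehicle. Gcat, a mitochondrial enzyme of threonine breakdown that yields glycine, was at 28.3 and 27.9 FPKM with TAN, 0.486 and 0.602 FPKM with TAMo, and 29.4 and 26.8 FPKM with vehicle. It fell by 4.24 on the log2 scale with TAMo (adjusted p = 2.23e-09). Gcat and Slc6a9 passed the filter on low values only through their TAN and vehicle libraries, so both had to differ from TAMo. Slc6a9, a glycine transporter, fell by 3.08 with TAMo, and by 0.38 with TAN (adjusted p = 0.0209), a TAN call that was lost without either TAN or either vehicle library (adjusted p 0.0556 to 0.119). Slc1a5, a carrier of neutral amino acids that include serine and glutamine, was at 268.8 and 270.2 FPKM with TAN, 131.8 and 127.0 FPKM with TAMo, and 344.9 and 341.2 FPKM with vehicle. It fell in both comparisons, by 0.35 with TAN (adjusted p = 0.000635) and by 1.40 with TAMo. Sfxn3, of the sideroflexin family that carries serine into mitochondria, went the other way with TAMo, at 20.7 and 19.9 FPKM, against 2.49 and 2.61 FPKM with vehicle, a rise of 2.58 on the log2 scale. The amino acid transporter Slc38a1 rose by 0.40 with TAMo.

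The other folate genes, 12 tested, had 1 rise and 7 falls with TAMo and 1 rise and 3 falls with TAN. Tyms, thymidylate synthase, was at 45.8 and 46.6 FPKM with TAN, 2.85 and 3.23 FPKM with TAMo, and 52.6 and 52.7 FPKM with vehicle. Its log2 change with TAMo was -3.73 (adjusted p = 1.52e-09). With TAN Tyms fell by 0.18 (adjusted p = 0.0497), a call lost without either TAN or either vehicle library (adjusted p 0.160 to 0.200). Fpgs, which adds glutamate to folates and so keeps them in the cell, fell by 1.18 with TAMo and by 0.28 with TAN (adjusted p = 0.00599), a TAN call lost without vehicle replicate 1. Ggh, which removes those glutamates, differed in direction between the groups, with a rise of 0.59 with TAN (adjusted p = 0.00451) and a fall of 0.54 with TAMo. The mitochondrial folate carrier Slc25a32 was not called with TAMo, at a log2 change of -0.11 (adjusted p = 0.104). It was called lower with quantile normalisation (-0.15, adjusted p = 0.0402) and with median-of-ratios scaling (-0.17, adjusted p = 0.0247), and was 0.08 with libraries rescaled to one sum. Aldh1l1, the cytosolic counterpart of Aldh1l2, was singled out after its values were seen. It was at 0.503 and 0.512 FPKM with TAN, 1.91 and 1.54 FPKM with TAMo, and 0.413 and 0.777 FPKM with vehicle. Aldh1l1 is the 1 rise of the folate list with TAMo. It passed the filter on low values only through its TAMo libraries, so it had to be higher there.

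In the methionine cycle, salvage and transsulfuration, 18 genes tested, 2 rose and 13 fell with TAMo (median -0.56), and 2 rose and 4 fell with TAN. Cth, cystathionine gamma-lyase, was at 20.5 and 20.6 FPKM with TAN, 2.06 and 1.97 FPKM with TAMo, and 30.8 and 30.1 FPKM with vehicle. It fell by 0.55 with TAN (adjusted p = 0.000931) and fell by 3.38 with TAMo. Ahcy, which clears S-adenosylhomocysteine, fell by 2.14 with TAMo, and its log2 change with TAN was 0.03 (adjusted p = 0.698). Mat2b, a regulatory subunit of methionine adenosyltransferase, and Ahcyl2 rose with TAMo by 0.74 and 0.70. With TAN, the salvage genes Adi1 and Apip differed by 0.39 and -0.36 and Ahcyl2 by 0.22. Each of these 3 TAN calls was lost without at least 1 library, Adi1 without TAN replicate 2 (adjusted p = 0.0537), Apip without TAN replicate 1 (0.0923), TAN replicate 2 (0.0685) or vehicle replicate 2 (0.0886), and Ahcyl2 without any 1 TAN or vehicle library (0.0543 to 0.103).

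Purine synthesis, which consumes formyl-tetrahydrofolate, had 11 genes tested, of which 1 rose and 10 fell with TAMo (median -1.04) and 1 rose and 1 fell with TAN. Gart and Atic, the enzymes that take up the folate-borne carbon, fell by 1.04 and 0.90 with TAMo and were not called with TAN (adjusted p = 0.743 and 0.115). The largest falls with TAMo were Impdh2, 5.91-fold, and Paics, 4.05-fold by mean FPKM, and Adss rose 1.66-fold. With TAN, Paics rose by 0.16 (adjusted p = 0.00873) and Adsl fell by 0.11 (adjusted p = 0.0412). The Paics call was lost without TAN replicate 2 (adjusted p = 0.0717), vehicle replicate 1 (0.0593) or vehicle replicate 2 (0.0597), and the Adsl call without any 1 TAN or vehicle library (0.111 to 0.201).

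**Figure D4:**
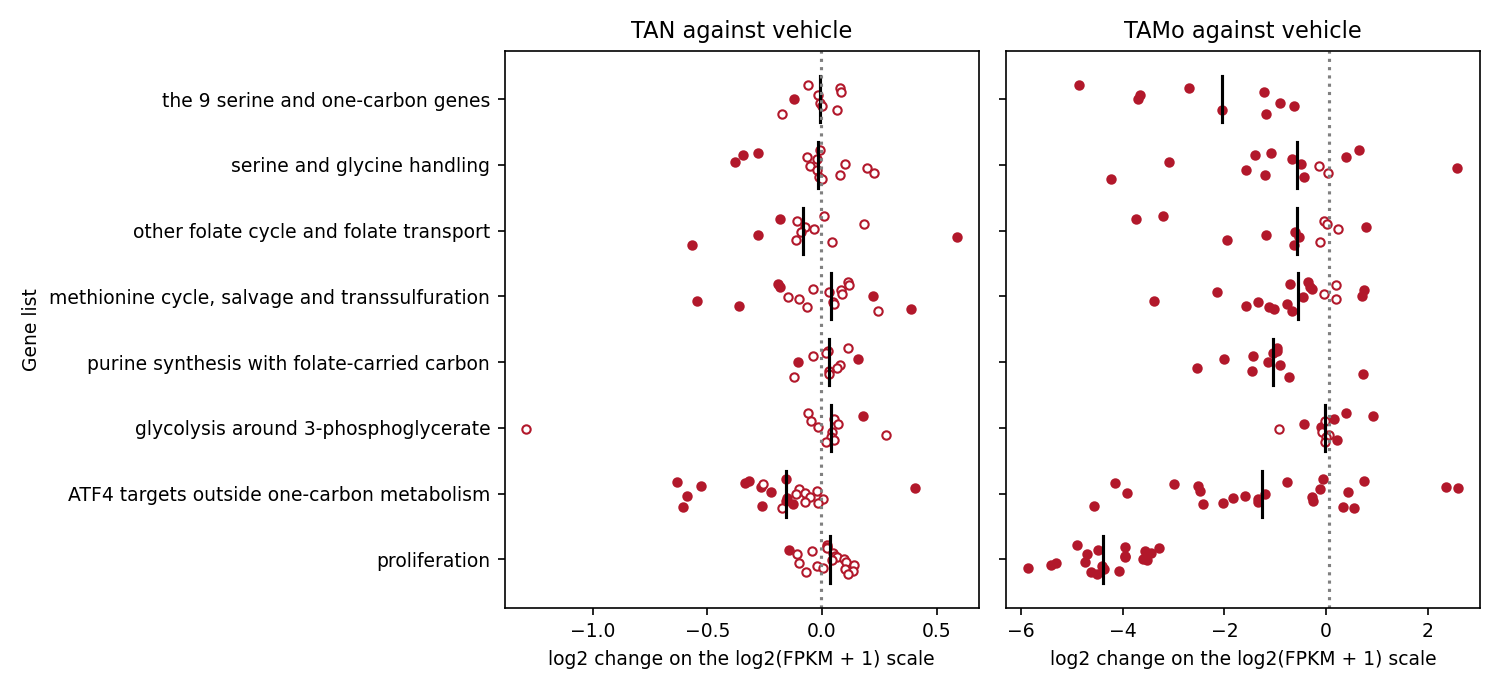
Log2 change on the log2(FPKM + 1) scale of each tested gene of the 9 and of related lists, for TAN against vehicle (left) and TAMo against vehicle (right); points are genes, filled where called, black lines are list medians and the dotted line is the median of all genes tested. With TAMo the medians are -2.04 for the 9 genes (-2.37 without Aldh1l2), -1.04 for purine synthesis, -0.014 for glycolysis and -4.38 for proliferation.

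Glycolysis, which supplies 3-phosphoglycerate, did not move as the 9 genes did. Of its 12 genes, 4 rose and 2 fell with TAMo (median -0.014), and 1 rose and 0 fell with TAN. Of 14 glutathione and NADPH genes, 3 rose and 9 fell with TAMo, and 5 rose and 1 fell with TAN.

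ATF4 is a transcription factor known to drive serine synthesis genes in stressed or growing cells. Its own gene was at 422.4 and 425.2 FPKM with TAN, 457.2 and 445.1 FPKM with TAMo, and 473.5 and 470.4 FPKM with vehicle. It fell by 0.16 with TAN (adjusted p = 0.00776), a call lost without any 1 TAN or vehicle library (adjusted p 0.0542 to 0.0671). With TAMo its log2 change was -0.07 (adjusted p = 0.0428, and 0.146 without the variance trend), which turned to 0.14 with libraries rescaled to one sum and to 0.033 when mitochondrial transcripts were left out of that sum. A list of ATF4 targets outside one-carbon metabolism, which also held Atf4 itself, had 24 genes tested. Of these, 6 rose and 18 fell with TAMo (median -1.26), and 1 rose and 13 fell with TAN (median -0.16, against -0.005 over all genes tested). Atf4 was among the falls in both. Asns, asparagine synthetase, was at 79.6 and 80.3 FPKM with TAN, 4.47 and 5.10 FPKM with TAMo, and 103.0 and 99.4 FPKM with vehicle. Asns and Pck2, a mitochondrial enzyme of gluconeogenesis, fell by 4.14 and 4.56 with TAMo and by 0.34 and 0.26 with TAN. The TAN call of Pck2 was lost without any 1 TAN or vehicle library (adjusted p 0.138 to 0.219), and that of Asns without TAN replicate 1 (0.0575), TAN replicate 2 (0.0556) or vehicle replicate 1 (0.0663). Nupr1, a small stress-induced nuclear protein, was at 17.7 and 12.4 FPKM with TAN, 0.138 and 0.0725 FPKM with TAMo, and 16.2 and 15.2 FPKM with vehicle.

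Other ATF4 targets went the opposite way with TAMo. Ddit4 and Sesn2, known as brakes on mTORC1, rose by 2.60 and 2.36. With TAN the 2 differed in direction, and Sesn2 fell by 0.26 (adjusted p = 0.0237, and 0.0547 without the variance trend). Ddit4 was at 131.8 and 128.2 FPKM with TAN, 605.5 and 588.8 FPKM with TAMo, and 97.9 and 97.5 FPKM with vehicle, and also rose with TAN, by 0.41 (adjusted p = 0.000376). The stress-related factor genes Ddit3 and Cebpb instead fell with TAMo, by 0.77 (adjusted p = 0.000104) and 1.58 (adjusted p = 2.35e-06). They fell also with TAN, by 0.63 (adjusted p = 0.00516) and 0.59 (adjusted p = 0.00843). The Cebpb call was lost without TAN replicate 2 (0.0626) or vehicle replicate 1 (0.0668).

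Of 14 genes listed as regulators of serine synthesis genes, 9 rose and 5 fell with TAMo, and 1 rose and 3 fell with TAN. Myc, a growth-promoting transcription factor, was at 352.7 and 353.7 FPKM with TAN, 292.5 and 295.9 FPKM with TAMo, and 423.1 and 425.4 FPKM with vehicle. It fell by 0.26 with TAN (adjusted p = 0.000896) and by 0.53 with TAMo (adjusted p = 3.62e-07). Mdm2, the ubiquitin ligase of p53, was at 30.0 and 29.9 FPKM with TAN, 304.9 and 294.3 FPKM with TAMo, and 31.3 and 32.9 FPKM with vehicle, a rise of 3.18 with TAMo. Mxd4, a partner of Max that opposes Myc, rose by 3.46 with TAMo. Hif1a, the oxygen-sensitive factor, rose by 1.20 with TAMo and by 0.15 with TAN (adjusted p = 0.00871), a TAN call lost without TAN replicate 1 (0.0631), TAN replicate 2 (0.0610) or vehicle replicate 1 (0.0679).

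Proliferation genes and transcripts of the mitochondrial genome moved with the 9 genes. All 20 proliferation genes tested fell with TAMo, with a median log2 change of -4.38, and their summed level was 3270 and 3260 FPKM with TAN, 176.7 and 186.4 FPKM with TAMo, and 3222 and 3226 FPKM with vehicle. With TAN 0 rose and 1 fell. Mki67, a marker of cycling cells, was at 160.1 and 162.2 FPKM with TAN, 4.12 and 4.58 FPKM with TAMo, and 159.1 and 158.0 FPKM with vehicle. All 13 mitochondrial transcripts in the table fell with TAMo, with a median of -2.99. In bulk RNA, fewer cells of a kind and less RNA per cell cannot be told apart, and the part of cell division in the lower level of the 9 genes was not tested.

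Most markers of the added myeloid cells were under 1 FPKM in every library, but the monocyte and macrophage sum was higher with TAMo. Of 15 neutrophil markers, 14 were under 1 FPKM in every library and 7 were at 0 in all, among them S100a8 and S100a9, with sums of 1.68 and 1.53 FPKM with TAN, 1.96 and 1.81 FPKM with TAMo, and 0.310 and 0.663 FPKM with vehicle. The 1 that was tested, Il1r2, was at 1.61 and 1.39 FPKM with TAN, 1.62 and 1.23 FPKM with TAMo, and 0.248 and 0.614 FPKM with vehicle. It was called higher with TAN and with TAMo. Il1r2 passed the filter on low values only through those libraries, so it had to differ from vehicle. Of 15 monocyte and macrophage markers, 12 were under 1 FPKM in every library and Lyz1, C1qa, C1qb and C1qc were at 0. The remaining 3, Cd14, Cd68 and Ms4a6c, were called higher with TAMo. Cd14 passed the filter only through its TAMo libraries (2.84 and 3.17 FPKM), so it had to be higher there. Cd68 and Ms4a6c were above 1 FPKM in every library. Cd68 was at 3.63 and 7.05 FPKM with TAMo and 2.95 and 2.35 FPKM with vehicle, and Ms4a6c at 4.88 and 6.28 against 2.38 and 2.62 FPKM. The sums of all 15 were 6.33 and 4.93 FPKM with TAN, 11.8 and 17.2 FPKM with TAMo, and 5.80 and 5.32 FPKM with vehicle. Dendritic cell markers, 10 genes, summed to 66.8 and 66.3 FPKM with TAN, 69.6 and 65.4 FPKM with TAMo, and 85.3 and 85.7 FPKM with vehicle. B cell markers, 7 genes, summed to between 7.41 and 11.5 FPKM in the 6 libraries. The part of such cells in the differences was not tested.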

How the data were processed

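RNA of 6 OT-I cell samples, 3 groups with 2 libraries each by the labels, was sequenced by the authors from TruSeq libraries, per the labels' protocols. The deposited values are FPKM per gene, which the authors computed, and the submitters' processing notes name CASAVA, HISAT2 2.0.5, featureCounts 1.5.0-p3 and mm10 with no roles. Which annotation, gene lengths and strand setting were used is not stated there. Since FPKM divides by the reads counted per library, a change in abundant transcripts moves all other values.

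The 9 genes and the related lists were chosen with earlier results of these data known. From each list the text names up to 2 called genes per direction with the largest change whose higher group averaged 5 FPKM or more, and Atf4, Myc, Mdm2, Tyms, Slc25a32, Gart, Atic and Mki67. Some genes that this rule names are not reported here. Glycolysis, glutathione, proliferation and mitochondrial lists are given by counts. Genes that reached 1 FPKM in 2 or more of 6 libraries, 10727 of 25638, entered 1 limma 3.58.1 fit (R 4.3.3) of log2(FPKM + 1) with a mean-variance trend, which gave the 3 comparisons (residual degrees of freedom 3, prior 4.07). All tests are two-sided, with p adjusted by Benjamini-Hochberg over all genes tested. The fit was tested on simulated data. Folds are ratios of mean FPKM. Ratios of genes were compared by exact permutation. Of the 10727 genes, 13 with TAN, 6 with TAMo and 15 with vehicle had equal values in both libraries of the group. Over genes with 1 transcript and 20 or more estimated fragments in both libraries together, chi-square per degree of freedom between the 2 libraries was 1.98 with TAN (1263 genes), 10.3 with TAMo (1312) and 2.40 with vehicle (1265). Reads were divided by 2 to give fragments in every library but TAMo replicate 1, whose depth is uncertain, and the TAMo value rests on that choice. Each library was counted as 1 sample, though these values cannot show that libraries of a group are independent. Counted reads were estimated from steps between low FPKM values of genes with 1 transcript, of which 98.2% to 99.0% were whole within 0.1 reads for values up to 40 reads. Whole reads were not recovered for all genes, so no count test was run. Near-identical copies were sought with blastn 2.17.0 in GENCODE transcripts. Since no promoter window held the first motif searched, the windows printed were chosen by the size of the fall. Alternatives covered the pseudocount, the filter, scaling, the variance model, the libraries in the fit, a replicate block and each library left out.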

Additional observations from a re-analysis of the deposited data

How the results depend on the processing

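With TAMo against vehicle and with TAN against TAMo, each of the 9 genes kept its direction and its call under all 17 alternatives (16 for Aldh1l2, which a mean of at least 5 FPKM removes). With TAN against vehicle, 2 of the 9 genes were called when only those 4 libraries were fitted, Phgdh joining at an adjusted p of 0.0496, and 0 when any 1 of them was left out. Aldh1l2 was called in that comparison under 1 alternative, without the variance trend (adjusted p = 0.0495). All genes called with TAN against vehicle numbered 2180, against 1331 with no filter and 725 to 829 with 1 TAN or vehicle library left out and up to 2574 with a TAMo library left out. For the other pathway genes the count was 13, against 6 with no filter and 4 to 6 with such a library left out.

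Values near 0 changed sign. With TAN against vehicle Mthfd1l was 0.018 with quantile normalisation, 0.0020 and 0.00037 with libraries rescaled to one sum with and without mitochondrial transcripts, 0.0062 with median-of-ratios scaling and -0.032 to 0.028 with a library left out. Shmt1 was 0.027 with quantile normalisation and -0.036 to 0.00027 with a library left out, and Mthfd1 -0.033 to 0.017. With a library left out, Slc25a32 ranged from -0.023 to 0.11, Gcat from -0.061 to 0.065, Adss from -0.0016 to 0.060 and Nupr1 from -0.32 to 0.16. With TAMo against vehicle and libraries rescaled to one sum, Atf4 was 0.14 and Slc25a32 0.081, and without mitochondrial transcripts in the sum Atf4 was 0.033. With TAN against TAMo, Slc25a32 was -0.030 and Ddit3 -0.046 under the first rescaling. That rescaling moved the median of all genes with TAMo against vehicle from 0.057 to 0.25. TAN calls lost when low values were kept included those of Slc6a9, Adsl, Tyms, Cebpb, Apip, Ahcyl2 and Pck2, and those of Tyms and Pck2 were lost also with a pseudocount of 0.1 or 0.5, with both rescalings, with median-of-ratios scaling and without the variance trend. The TAN call of Pck2 was lost with quantile normalisation (adjusted p = 0.0888), as was that of Adsl (0.0505, and 0.0512 with median-of-ratios scaling and 0.121 without the variance trend), and that of Slc6a9 with a pseudocount of 0.1 (0.103). The cause of these changes was not tested.

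Libraries with equal replicate numbers deviated together very little, with correlations of deviations of 0.0567, 0.0245 and 0.00782. Such low values cannot exclude that equal numbers share an origin. A replicate block changed no call of the 9 genes and gave 2140 calls with TAN against vehicle, 9282 with TAMo against vehicle and 9300 with TAN against TAMo. With 2 libraries per group, differences as small as those with TAN depend on single libraries, and the uncertain depth of TAMo replicate 1 limits the low value of Aldh1l2.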
